A study of Mus musculus with 10 samples.

Results

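Resting B cells were compared with B cells that had divided in a first culture and divided again in a second. Every group came from the spleens of C57BL/6 mice, an inbred laboratory strain, and no group carried a transgene or a deletion according to the labels. Resting cells (the group naive) received no activating agent. The Phase I cultures were pulsed with anti-IgM, an antibody to the antigen receptor, and anti-CD40, an antibody to a co-stimulatory receptor, and the cells that had divided by 48 h form the group div12. Cells of the same cultures that had not divided form div0, which enters the plots and the estimate of the spread only. For Phase II, div12 cells were cultured for another 48 h in 0.12 µg/ml anti-CD40 and sorted by flow cytometry into cells that had divided again (div12_48_d) and cells that had not (div12_48_u). The comparison described here is div12_48_d against naive, which uses 4 of the 10 libraries of the series, 2 per group, and it runs over every gene symbol of the deposited table. Of 6610 symbols, 4427 reached 1 TPM in at least 2 libraries and were tested. The divided Phase II cells are also set against div12_48_u and div12, to show where their difference from resting cells is shared with those groups and where it is not. Resting and divided cells differ in culture time, in exposure to both antibodies, in sorting and in the number of cells used for RNA (1000000 in Phase I and 500000 in Phase II), and these cannot be told apart. Per the labels, replicates of Phase I were independent pools of 4 to 5 mice, and whether a replicate number marks the same pool across groups is not stated, so the p-values measure the spread between these libraries alone. The number of divisions behind each library is not given in the sources used here.

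Naive B lymphocytes circulate between blood and lymphoid organs in a non-dividing state, held there by transcription factors of the Klf and Foxo families and by inhibitors of cyclin-dependent kinases. Engagement of the antigen receptor together with CD40, the signal that helper T cells give, takes them into the cell cycle, with growth in ribosomes and mitochondria before DNA synthesis and mitosis. CD40 signals through NF-kB, induces chemokines and survival genes, and can sustain proliferation when the antigen signal has ended. Divided B cells may go on to antibody secretion, to a germinal centre fate or to memory, and each fate has its own transcription factors.

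Values are TPM, transcript abundances scaled for length to the same total in each library, so levels can be compared between genes, and sequencing depth is unknown. A library is 1 value, and fold changes with their standard errors (SE) are on the log2(TPM + 1) scale, on which changes of low genes are understated. A gene rose or fell where limma, a linear model fitted across all genes, gave a two-sided Benjamini-Hochberg adjusted p under 0.05. The B cell gene Cd79a, which encodes a signalling chain of the antigen receptor, was present in all 4 libraries, at 10900 and 10710 TPM in naive and 6746 and 7608 in div12_48_d. The naive libraries stood further apart from each other than the divided ones, with 340 against 55 genes more than 2-fold apart. They also held more RNA of genes that mark other cells. The summed level of the erythroid markers was 2865 and 3522 TPM in naive and 87.3 and 94.2 in div12_48_d. That of the myeloid markers was 1403 and 4094 TPM in naive and 884 and 1017 in div12_48_d. Of 20 listed myeloid markers 10 were under 1 TPM in both div12_48_d libraries. The myeloid sum includes Mpeg1, which B cells express as well and which rose. The summed level of the immediate early genes was 14020 and 9303 TPM in naive and 2010 and 2559 in div12_48_d. In bulk RNA, fewer cells of a type and less RNA per cell cannot be told apart.

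Most of the measured transcriptome differed between divided and resting cells. limma called 2762 of 4427 genes (62.4%), of which 964 were higher (21.8%) and 1798 lower (40.6%) in div12_48_d. Of these, 364 rose at least 2-fold (8.22%) and 727 fell at least 2-fold (16.4%), and 139 rose (3.14%) and 269 fell (6.08%) at least 4-fold. Over all genes tested the log2 change had a median of -0.21, and the middle 50 percent of genes lay between -0.72 and 0.31. The split moved with the scaling: with median-ratio scaling the median was 0.02 and the split 1443 higher against 1248 lower. Quantile normalization gave 1398 higher against 1265 lower. Libraries of the groups did not overlap for 3568 genes (80.6%), 29.3% of those tested being higher and 51.3% lower in both divided libraries. In the plot of group means, the genes with the widest gaps lie on both sides of the diagonal, Ccl22 and Spp1 above it and Klf4 and Tsc22d3 below.

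**Figure D1:**
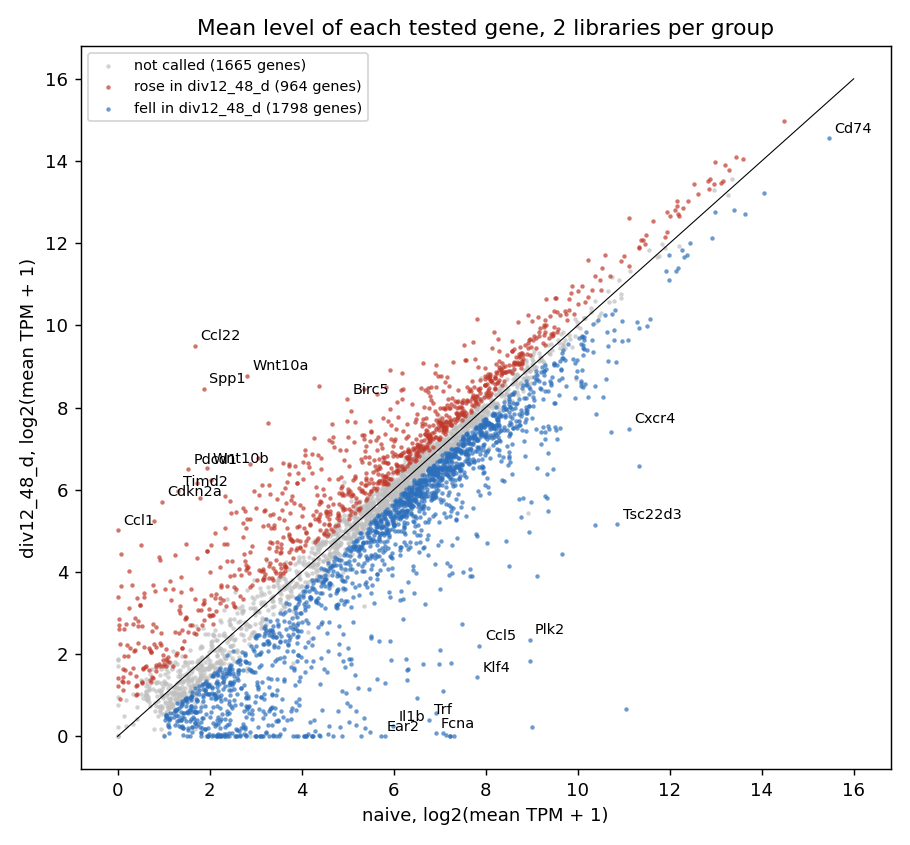
Mean level of each of the 4427 tested genes on the log2(mean TPM + 1) scale in naive (horizontal axis) and div12_48_d (vertical axis), 2 libraries per group, with genes that rose in red, genes that fell in blue and a diagonal line of equal levels. More genes lie below the diagonal (1798 called lower) than above it (964 called higher), and Ccl22 is the named gene farthest above it.

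Gene lists give the outline. Of 1464 symbols in the lists, 768 were tested, and every count is of tested members. The largest positive medians were those of mitosis genes (2.38), the passenger complex (2.04) and DNA replication (1.34), and smaller ones those of cholesterol synthesis (0.90), serine metabolism (0.90), ribosomal proteins (0.65) and oxidative phosphorylation (0.55). Among lists of B cell programs, the lowest medians were those of immediate early genes (-2.89), interferon response (-1.34), homing receptors (-1.32), quiescence regulators (-1.08) and MHC class II (-0.90). The same figure over all genes tested was -0.21. Under median-ratio scaling and quantile normalization each of these lists kept its sign.

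**Figure D2:**
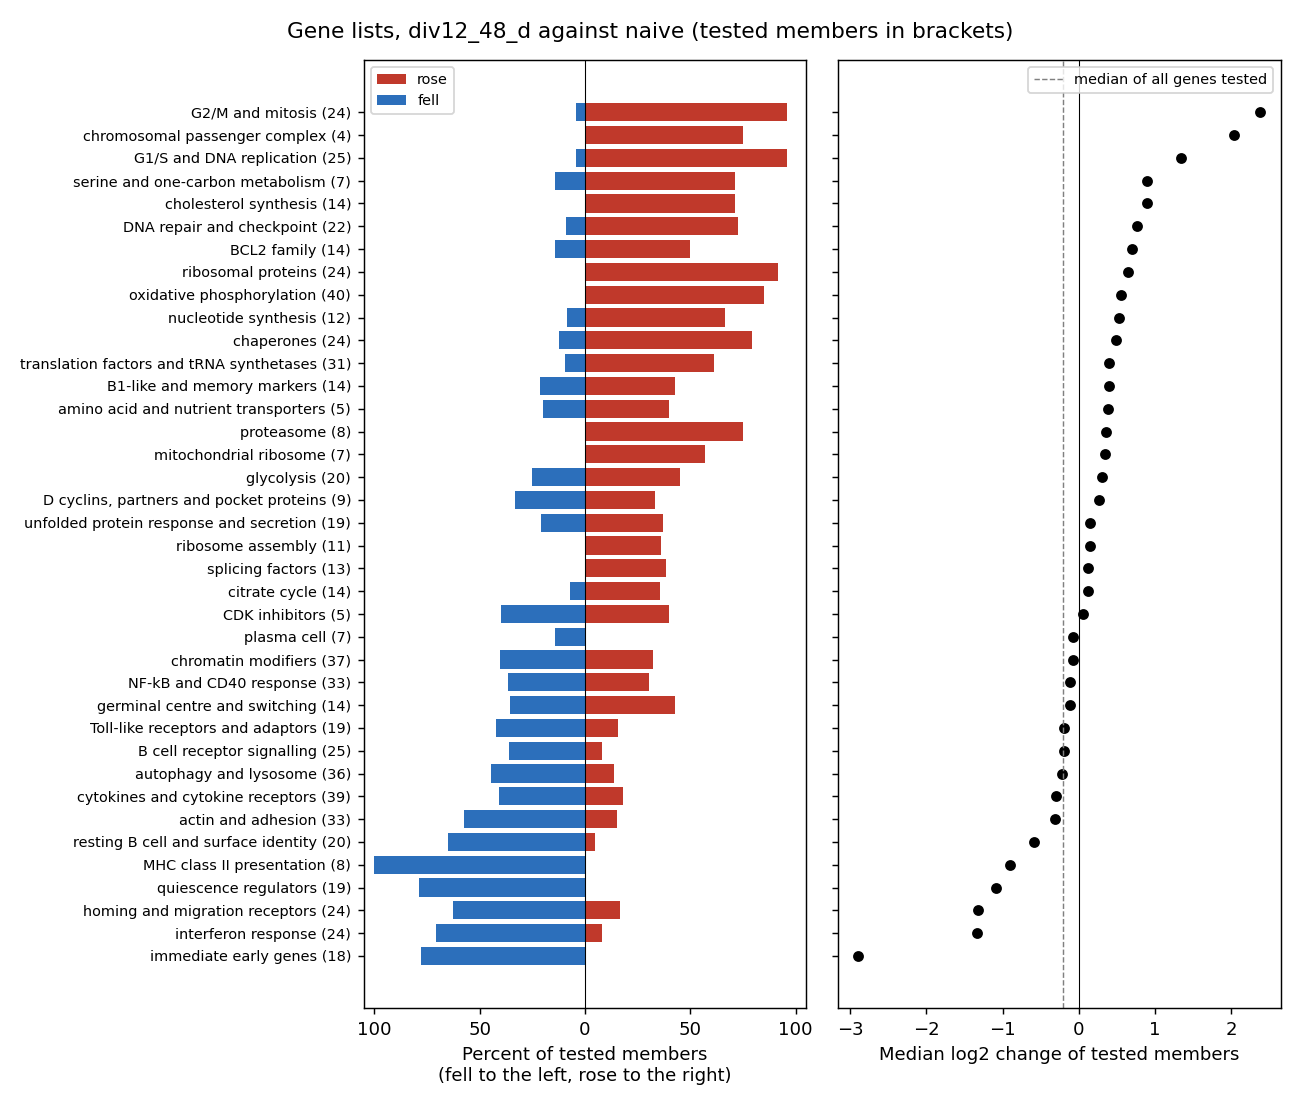
Share of tested members of each list that fell (blue, to the left) and rose (red, to the right) in div12_48_d against naive, in percent, and in the right panel the median log2 change of the list with a dashed line at the median of all genes tested (-0.21). Cell cycle lists lie at the top, with 23 of 24 mitosis genes higher, and immediate early, interferon and homing lists lie among the lowest.

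Genes of mitosis were higher in divided cells nearly without exception. Of 24 tested mitosis genes 23 rose and 1 fell. Birc5, which encodes survivin, the subunit of the chromosomal passenger complex that also belongs to the inhibitor of apoptosis family, was at 27.9 and 33.4 TPM in naive and 316 and 272 in div12_48_d, a 9.33-fold rise (3.22 ± 0.15, limma adjusted p = 2.54e-06). Its partners rose too, the kinase Aurkb from 26.6 and 35.6 to 149.8 and 158 TPM (2.28 ± 0.24). The scaffold Incenp went from 59.3 and 56.5 to 199.6 and 206 TPM (1.79 ± 0.23). Aurkc, the germ cell relative of Aurkb, did not pass the test, at 2.37 and 3.23 TPM in naive and 2.16 and 1.11 in divided cells. Mki67, the chromosome surfactant used as a proliferation marker, went from 64.1 and 55.4 to 491 and 478 TPM (3.0 ± 0.21, adjusted p = 1.38e-05). Cdk1, the kinase that drives entry into mitosis, went from 7.66 and 8.02 to 74.2 and 62.3 TPM (2.96 ± 0.16). Its partner cyclin Ccnb1 went from 18.1 and 18.3 to 172 and 132 TPM (2.98 ± 0.22). Bub1, a kinase of the spindle checkpoint, went from 7.18 and 6.33 to 65.7 and 57.9 TPM (3.02 ± 0.21). Each of these risers was higher in both divided libraries than in either naive library. The exception, Cdc25b, a phosphatase that activates cyclin-dependent kinases, was at 194 and 208 TPM in naive and 108 and 138 in div12_48_d (-0.71 ± 0.19, adjusted p = 0.0113), and it was singled out after its values were seen.

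Promoters of mitotic genes are known for CCAAT boxes bound by the factor NF-Y and for the cell cycle homology region, a short element bound by the DREAM and MuvB complexes. Windows from 250 bases before to 50 after the start site were available for 20 of the 26 mitosis and passenger genes that rose, from RefSeq on GRCm38.p6. Each motif was searched on both strands. A CCAAT box stood in 16 of the 20 windows (80%), against 43.2% of the 3435 tested genes with a window and 37.4% of all 32851 windows. At least 2 CCAAT boxes stood in 11 of them (55%), against 16.8% of tested genes. The share was also high in other lists, with 9 of 19 replication genes that rose (47.4%), 3 of 6 cholesterol genes that rose (50%) and 5 of 14 quiescence regulators that fell (35.7%). The letters TTTGAA of the cell cycle homology region stood in 14 (70%), against 14.7% of tested genes. The E2F motif, searched as GGCG, then G or C, then GAA, stood in 1 of the 20 (5%), against 5.85% of tested genes. These shares describe letters in a window and not binding. The 110 bases upstream of the start of 4 of the risers are shown as examples of windows with several CCAAT boxes, chosen after the boxes were seen. Sequences run 5′ to 3′ on the coding strand with CCAAT or its complement ATTGG in capitals.
Cdk1 (chr10:69352913-69353022, minus strand): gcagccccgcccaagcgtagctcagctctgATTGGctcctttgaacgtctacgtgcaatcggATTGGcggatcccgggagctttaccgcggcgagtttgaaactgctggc
Ccnb1 (chr13:100786487-100786596, minus strand): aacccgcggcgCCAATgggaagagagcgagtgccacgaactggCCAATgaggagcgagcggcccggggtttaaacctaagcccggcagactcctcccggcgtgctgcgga
Ccnb2 (chr9:70421555-70421664, minus strand): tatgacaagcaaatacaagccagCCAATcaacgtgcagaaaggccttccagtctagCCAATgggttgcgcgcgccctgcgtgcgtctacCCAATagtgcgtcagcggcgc
Bub1 (chr2:127831860-127831969, minus strand): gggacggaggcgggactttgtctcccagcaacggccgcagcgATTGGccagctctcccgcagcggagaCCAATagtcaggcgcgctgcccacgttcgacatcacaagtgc
The boxes begin 80 and 48 bases before the start in Cdk1 and 99 and 67 before it in Ccnb1, a spacing of 32 bases in both. In Ccnb2, the other B-type cyclin, there are 3 boxes, at 87, 54 and 21 bases, and in Bub1 the boxes at 68 and 42 bases are 26 apart. Over all 11 windows with at least 2 boxes the smallest spacing ran from 22 to 61 bases, with a median of 33.

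Genes of DNA replication rose with smaller changes than those of mitosis. In this list 24 of 25 tested members rose and 1 fell. Uhrf1, which reads newly copied methylated DNA, went from 45.3 and 52.2 TPM in naive to 332 and 308 in div12_48_d (2.69 ± 0.19, limma adjusted p = 1.52e-05). The cyclin Ccne2 went from 6.65 and 6.06 to 42.8 and 33.9 TPM (2.41 ± 0.20). Gins2, a subunit of the replicative helicase, went from 15.9 and 17.8 to 102 and 84.1 TPM (2.39 ± 0.12). In each of these genes both divided libraries exceeded both naive libraries. Pcna, the sliding clamp and the most abundant member, went from 556 and 470.4 to 1157 and 1047 TPM (1.10 ± 0.11). Replication licensing gave opposite calls. The inhibitor Gmnn (geminin) rose from 38.0 and 41.4 to 168 and 151 TPM (1.98 ± 0.10). The loading factor that it binds, Cdt1, fell from 302 and 196 to 82.7 and 88.4 TPM (-1.5 ± 0.22, adjusted p = 0.000553), a gene singled out after its values were seen. In the promoters of the replication genes that rose, the E2F motif stood in 9 of 19 windows (47.4%), CCAAT in 13 (68.4%) and TTTGAA in 3 (15.8%).

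Nucleotide synthesis and DNA repair genes were mostly higher. Among nucleotide genes 8 of 12 rose and 1 fell. Rrm2, the regulated subunit of ribonucleotide reductase, was at 38.4 and 41.4 TPM in naive and 347 and 352 in div12_48_d, an 8.58-fold rise (3.10 ± 0.17). Tyms, thymidylate synthase, fell from 257 and 255 to 193 and 192 TPM (-0.41 ± 0.10, adjusted p = 0.00641; singled out after its values were seen). With median-ratio scaling 8 nucleotide genes rose and 0 fell. In DNA repair 16 of 22 rose and 2 fell (17 and 0 with median-ratio scaling). Rad54l, a motor protein of homologous recombination, went from 6.81 and 10.6 to 74.1 and 62.2 TPM (2.85 ± 0.24). The checkpoint kinase Chek1 went from 7.16 and 4.93 to 38.4 and 38.0 TPM (2.50 ± 0.21). The gap between the groups was wider than that between replicates in both. Parp1, an abundant sensor of strand breaks, did not pass the test and overlapped between the groups, at 548 and 595 TPM in naive and 551 and 572 in div12_48_d.

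The switches upstream of replication moved in different directions. Among D cyclins, their kinases and pocket proteins, 3 of 9 rose and 3 fell, against 21.8% and 40.6% of all genes tested. With median-ratio scaling 5 rose and 1 fell. Ccnd2, the main D cyclin of activated B cells, went from 97.4 and 107 TPM in naive to 174 and 212 in div12_48_d (0.90 ± 0.14, limma adjusted p = 0.000621). Its kinase Cdk4 went from 301 and 312 to 832 and 784 TPM (1.40 ± 0.08). Tfdp1, the dimer partner of E2F factors, went from 70.1 and 71.8 to 364 and 319 TPM (2.25 ± 0.12). The groups do not overlap for these 3 genes. Ccnd1, low in both groups, fell from 7.79 and 14.9 to 1.84 and 1.25 TPM (-2.23 ± 0.27). Ccnd3 was at 157 and 203 TPM in naive and 144 and 131 in div12_48_d (-0.37 ± 0.14, adjusted p = 0.0428), a marginal fall that is lost under several alternatives and is 0.03 in its most abundant transcript.

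Of 5 tested inhibitors of cyclin-dependent kinases 2 rose, 2 fell and 1 did not pass the test. Of all genes tested 21.8% rose and 40.6% fell. The Cip/Kip member Cdkn1b (p27), which holds resting lymphocytes out of cycle, fell from 285 and 288 TPM in naive to 123 and 148 in div12_48_d (-1.08 ± 0.10, limma adjusted p = 4.74e-05). The members that rose are of the INK4 family. Cdkn2a, which encodes p16 and ARF, was at 0.822 and 1.09 TPM in naive and 57.0 and 45.5 in divided cells, a 26.6-fold rise (4.73 ± 0.26, adjusted p = 4.26e-06). Its neighbour Cdkn2b, which encodes p15, went from 1.09 and 0.320 to 13.6 and 9.93 TPM (2.93 ± 0.25, adjusted p = 3.15e-05). On GRCm38.p6 Cdkn2a lies on chromosome 4 from 89274473 to 89294619 and Cdkn2b on chromosome 4 from 89306289 to 89311032. Both were also higher in the divided Phase II libraries than in every other library of the series. Cdkn2a was at 7.59 and 8.90 TPM in div12 (2.49 ± 0.26 for div12_48_d minus div12, adjusted p = 0.000815) and at 4.17 and 4.91 in div12_48_u (3.23 ± 0.26 for div12_48_d minus div12_48_u, adjusted p = 0.000477). Cdkn2b was at 3.73 and 3.60 TPM in div12 (1.44 ± 0.25, adjusted p = 0.00692) and at 2.52 and 2.68 in div12_48_u (1.81 ± 0.25, adjusted p = 0.00233). The other member that fell, Cdkn1c (p57), was near 1 TPM and its call is lost under 9 alternatives. Cdkn1c reached 1 TPM in the naive libraries alone, so it could only be lower in div12_48_d. Cdkn1a (p21), named after its values were seen, did not pass the test, at 15.2 and 7.78 TPM in naive and 13.0 and 10.1 in div12_48_d. In the plot of cell cycle genes, the mitotic genes have their highest means in div12 and Cdkn2a and Cdkn2b theirs in div12_48_d.

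**Figure D3:**
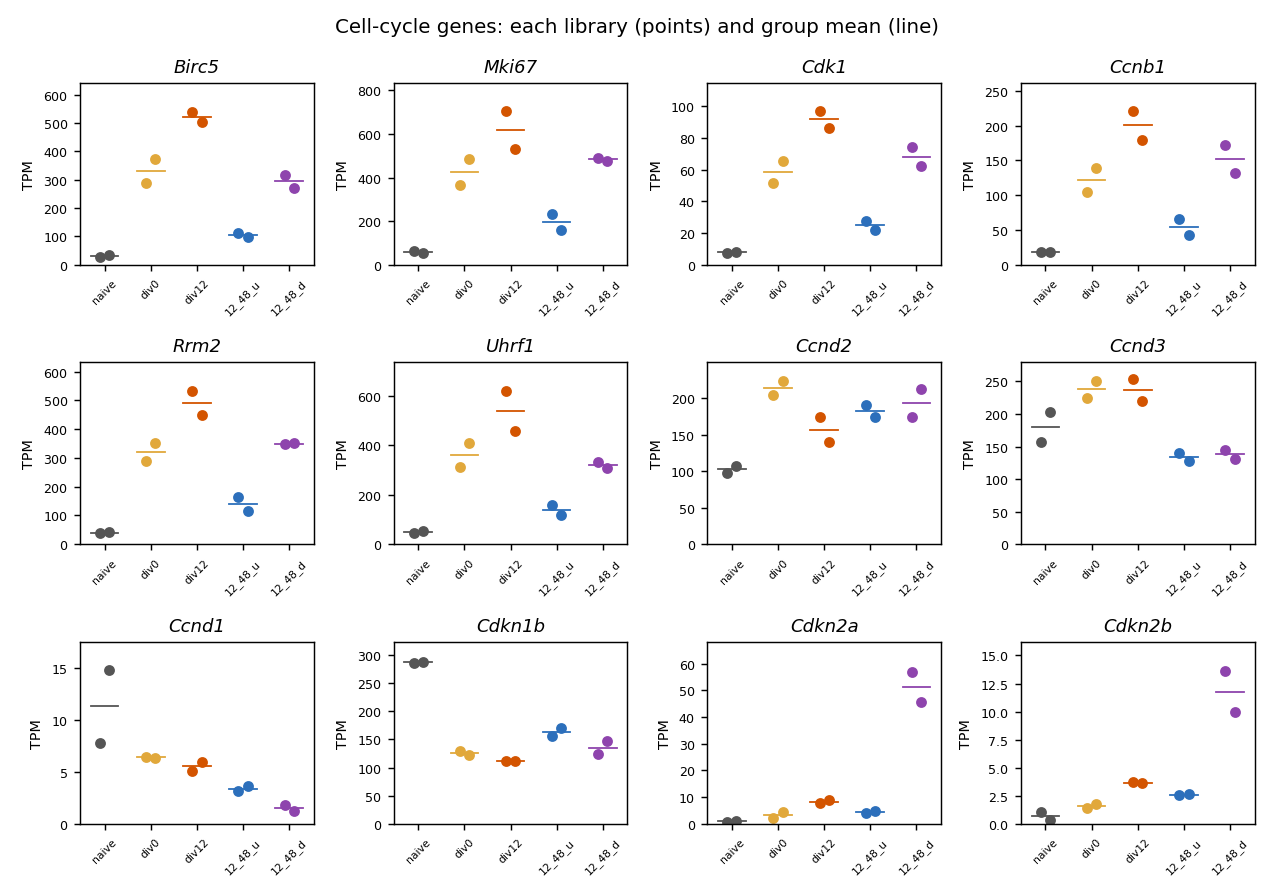
TPM of 12 cell cycle genes in each library (points) of the 5 groups, with the group mean as a line; 12_48_u and 12_48_d stand for div12_48_u and div12_48_d, and each panel has its own axis from 0. Birc5, Mki67, Cdk1, Ccnb1, Rrm2 and Uhrf1 are lowest in naive and highest in div12, Cdkn1b is highest in naive, and Cdkn2a and Cdkn2b are highest in div12_48_d.

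Genes for building the cell were higher in divided cells by modest factors. In oxidative phosphorylation 34 of 40 tested members rose and 0 fell, and the risers include subunits of each respiratory complex and of the ATP synthase. Cox6c, a subunit of cytochrome c oxidase, went from 573 and 556 TPM in naive to 1265 and 1074 in div12_48_d (1.05 ± 0.11). Cox4i1 went from 1078 and 1089 to 2007 and 1973 TPM (0.88 ± 0.07). Atp5g2 of the ATP synthase went from 1022 and 1025 to 1896 and 1789 TPM (0.85 ± 0.07). The replicates of each group lay close together in these genes. In the citrate cycle 5 of 14 rose and 1 fell, against 21.8% and 40.6% of all genes tested. Fumarase (Fh1) went from 189 and 216 to 349 and 349.9 TPM (0.79 ± 0.08). Citrate synthase (Cs), which starts the cycle, did not pass the test at 305 and 347 TPM in naive and 359.5 and 356 in divided cells. In glycolysis 9 of 20 rose and 5 fell, against the same 21.8% and 40.6%. Several of its abundant enzymes rose. The aldolase Aldoa went from 866 and 934 to 1609 and 1607 TPM (0.84 ± 0.08). Gapdh went from 2218 and 2203 to 6649 and 5792 TPM (1.49 ± 0.11, limma adjusted p = 1.58e-05). Pgk1 went from 281 and 284 to 717 and 672 TPM (1.29 ± 0.08). In each the divided libraries lay above the naive ones. Pgam1 went from 224 and 228 to 525 and 484 TPM (1.15 ± 0.12). Slc2a1 (GLUT1), the main glucose importer of lymphocytes, fell from 154 and 106 to 51.6 and 50.4 TPM (-1.31 ± 0.17). The other falls, named after their values were seen, were the glucose transporter Slc2a3, the lactate exporter Slc16a3, the pyruvate dehydrogenase kinase Pdk1 and Ldhb. With median-ratio scaling 12 rose and 4 fell.

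Ribosomal protein genes rose in 22 of 24 cases with 0 falls (16 of 24 with quantile normalization). Rpl28, Rps19 and Rpl32 are among the 8 genes named for the largest gain in mean TPM. Rpl28 went from 7975 and 8185 to 15850 and 16320 TPM (0.99 ± 0.08). Rps19 went from 10650 and 11580 to 17860 and 17280 TPM (0.66 ± 0.10). Rpl32 went from 9202 and 9639 to 15830 and 14770 TPM (0.70 ± 0.10). Near-identical pseudogene copies exist for many ribosomal protein genes, and their reads may be split between copies. Eef1a1, the elongation factor that brings tRNA to the ribosome, went from 23100 and 22820 to 33190 and 31330 TPM (0.49 ± 0.08). Ppia, a prolyl isomerase, went from 6003 and 5794 to 12010 and 10230 TPM (0.91 ± 0.09). In ribosome assembly 4 of 11 rose and 0 fell, led by Npm1, a nucleolar chaperone, from 1555 and 1544 to 3485 and 3223 TPM (1.11 ± 0.07, limma adjusted p = 8.18e-06). Polr1c, a subunit of RNA polymerases I and III, went from 115 and 121 to 258 and 227 TPM (1.03 ± 0.08). In Npm1 and Polr1c the lower divided library stood above the higher naive library. For the 8 genes of largest gain, Eef1a1 and Ppia among them, that was a condition for naming. Translation factors and tRNA synthetases rose in 19 of 31 cases and fell in 3. Chaperones rose in 19 of 24 and fell in 3, with Hsp90b1 of the endoplasmic reticulum going from 966 and 882 to 1777 and 1787 TPM (0.95 ± 0.07). Among genes of the unfolded protein response and secretion 7 of 19 rose and 4 fell, against 21.8% and 40.6% of all genes tested. Sdf2l1, a chaperone cofactor, went from 71.9 and 81.1 to 157 and 149.7 TPM (1.00 ± 0.12). The stress kinase Eif2ak3 (PERK) fell from 247 and 176 to 84.0 and 100.1 TPM (-1.17 ± 0.16). The stress factor Atf4 went from 1011 and 1001 to 554 and 591 TPM (-0.81 ± 0.09). In the proteasome list 6 of 8 rose, in the mitochondrial ribosome 4 of 7 and among splicing factors 5 of 13, with 0 falls in each.

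Biosynthetic pathways rose as well. In cholesterol synthesis 10 of 14 rose and 0 fell. Sqle, which opens the sterol branch, went from 45.6 and 36.1 TPM in naive to 134 and 111 in div12_48_d (1.56 ± 0.24, limma adjusted p = 0.000684). Idi1 went from 67.5 and 54.3 to 169 and 129 TPM (1.27 ± 0.21). Divided libraries were higher than naive libraries in both. Srebf2, the transcription factor that controls the pathway, did not pass the test and overlapped between the groups, at 431 and 463 TPM in naive and 403 and 433 in div12_48_d. In serine and one-carbon metabolism 5 of 7 rose and Tyms, described above, fell. Phgdh, the entry enzyme of serine synthesis, went from 189 and 184 to 596 and 550.2 TPM (1.61 ± 0.12). Psat1, the next enzyme, went from 68.3 and 52.4 to 206 and 173 TPM (1.64 ± 0.18). Among nutrient transporters Slc3a2, the heavy chain of several amino acid exchangers, fell from 453 and 319.9 to 173 and 188 TPM (-1.07 ± 0.17) and 2 of 5 members rose.

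The 8 genes named for the largest rises are Ccl22, Spp1, Wnt10a, Wnt10b, Ccl1, Pdcd1, Timd2 and the kinase inhibitor gene Cdkn2a, whose values stand above. Ccl22, a chemokine that draws CCR4-bearing T cells, was at 1.84 and 2.60 TPM in naive and 988 and 463 in div12_48_d, a 212-fold rise (7.73 ± 0.44, limma adjusted p = 5.29e-06). It lies on chromosome 8 from 94745684 to 94751388. Its divided libraries differed from each other by over 2-fold, and both were far above the naive range. Spp1 (osteopontin), a secreted ligand of integrins, went from 3.54 and 1.82 to 418 and 284 TPM, 96.6-fold (6.59 ± 0.31, adjusted p = 2.54e-06). It lies on chromosome 5 from 104435111 to 104441053. Wnt10a, a Wnt ligand, went from 4.86 and 7.17 to 461 and 413 TPM (5.98 ± 0.23). Its neighbour in the family Wnt10b went from 3.67 and 1.98 to 100.1 and 82.1 TPM (4.62 ± 0.30). Both are low in resting cells. The chemokine Ccl1 was listed at 0 in both naive libraries and stood at 39.4 and 23.2 TPM in div12_48_d (adjusted p = 0.000218). Pdcd1, the inhibitory receptor PD-1, went from 2.36 and 1.44 to 106 and 73.0 TPM, 31.2-fold (4.96 ± 0.31, adjusted p = 8.18e-06). Timd2, a receptor for H-ferritin, went from 1.03 and 1.90 to 65.8 and 56.9 TPM (4.68 ± 0.22). That libraries of the groups do not overlap was a condition for naming these genes.

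Genes of the NF-kB and CD40 response went both ways. Of 33 tested members 10 rose and 12 fell, against 21.8% and 40.6% of all genes tested. With median-ratio scaling 14 rose and 7 fell and the median turned from -0.11 to 0.13. Ligands and secreted effectors stood at the top of the list. Cd80, a ligand of CD28 on T cells, went from 11.7 and 15.1 TPM in naive to 98.3 and 91.3 in div12_48_d (2.75 ± 0.17, limma adjusted p = 8.18e-06). Ebi3, a subunit of IL-27 and IL-35, went from 50.5 and 60.9 to 346 and 374 TPM (2.68 ± 0.17). The chemokine Ccl5 fell from 192 and 273 to 1.94 and 5.27 TPM (-5.74 ± 0.37), and T and NK cells, whose markers were also higher in the naive libraries, are known to express it. Of the signalling genes, 3 that fell are named after their values were seen. Cd40 itself went from 254 and 288 to 205 and 148 TPM (-0.63 ± 0.17). Map3k14 (NIK), the kinase of the non-canonical pathway, went from 117 and 121 to 34.7 and 48.5 TPM (-1.51 ± 0.18). Traf3, which keeps that kinase low, went from 182 and 159 to 91.8 and 90.4 TPM (-0.89 ± 0.12). These falls are smaller than the rises of the ligands. Nfkb2, the subunit that this pathway processes, did not pass the test and overlapped between the groups, at 509 and 565 TPM in naive and 563 and 436 in div12_48_d.

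Among cytokines and their receptors 7 of 39 rose and 16 fell, shares near the 21.8% and 40.6% of all genes tested. The rises were led by ligands of the TNF family. Tnfsf14 (LIGHT) went from 1.67 and 3.21 TPM in naive to 64.0 and 45.5 in div12_48_d, 16.4-fold (4.04 ± 0.30, limma adjusted p = 1.65e-05). Tnfsf9, the 4-1BB ligand, went from 7.93 and 6.68 to 120.1 and 97.0 TPM (3.72 ± 0.23). Of the receptors for TNF itself, Tnfrsf1b fell from 140.1 and 73.5 to 19.0 and 21.8 TPM (-2.26 ± 0.28). Tnfrsf1a, at 8.55 and 23.9 TPM in naive, was listed at 0 in both divided libraries. It reached 1 TPM in the naive libraries alone, so it could only be lower in div12_48_d. Il4ra, the receptor chain for IL-4, fell from 373 and 345 to 93.3 and 97.7 TPM (-1.90 ± 0.08, adjusted p = 2.29e-06). Abundant members did not pass the test, with Ltb, a membrane lymphotoxin, at 1256 and 2031 TPM in naive and 1598 and 1431 in div12_48_d. Il2rg, the common gamma chain, was at 1448 and 1236 TPM in naive and 1184 and 999 in div12_48_d.

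Survival and death genes of the BCL2 family both rose. Of 14 tested members 7 rose and 2 fell, and with median-ratio scaling 10 rose and 2 fell. Bcl2l1, which encodes the survival protein BCL-XL, went from 10.97 and 14.9 TPM in naive to 61.0 and 52.7 in div12_48_d (2.06 ± 0.20, limma adjusted p = 6.87e-05). Bcl2a1a, another survival gene, went from 356 and 219 to 992 and 849 TPM (1.71 ± 0.19). Reads of its near-identical copies may be counted with it. Pro-apoptotic Bid rose from 109 and 173 to 447 and 408 TPM (1.63 ± 0.19). Pro-apoptotic Bmf fell from 106 and 82.2 to 25.9 and 31.8 TPM (-1.66 ± 0.15). Mcl1, an abundant survival gene, did not pass the test and overlapped, at 760.4 and 1199 TPM in naive and 844 and 869.9 in div12_48_d.

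**Figure D4:**
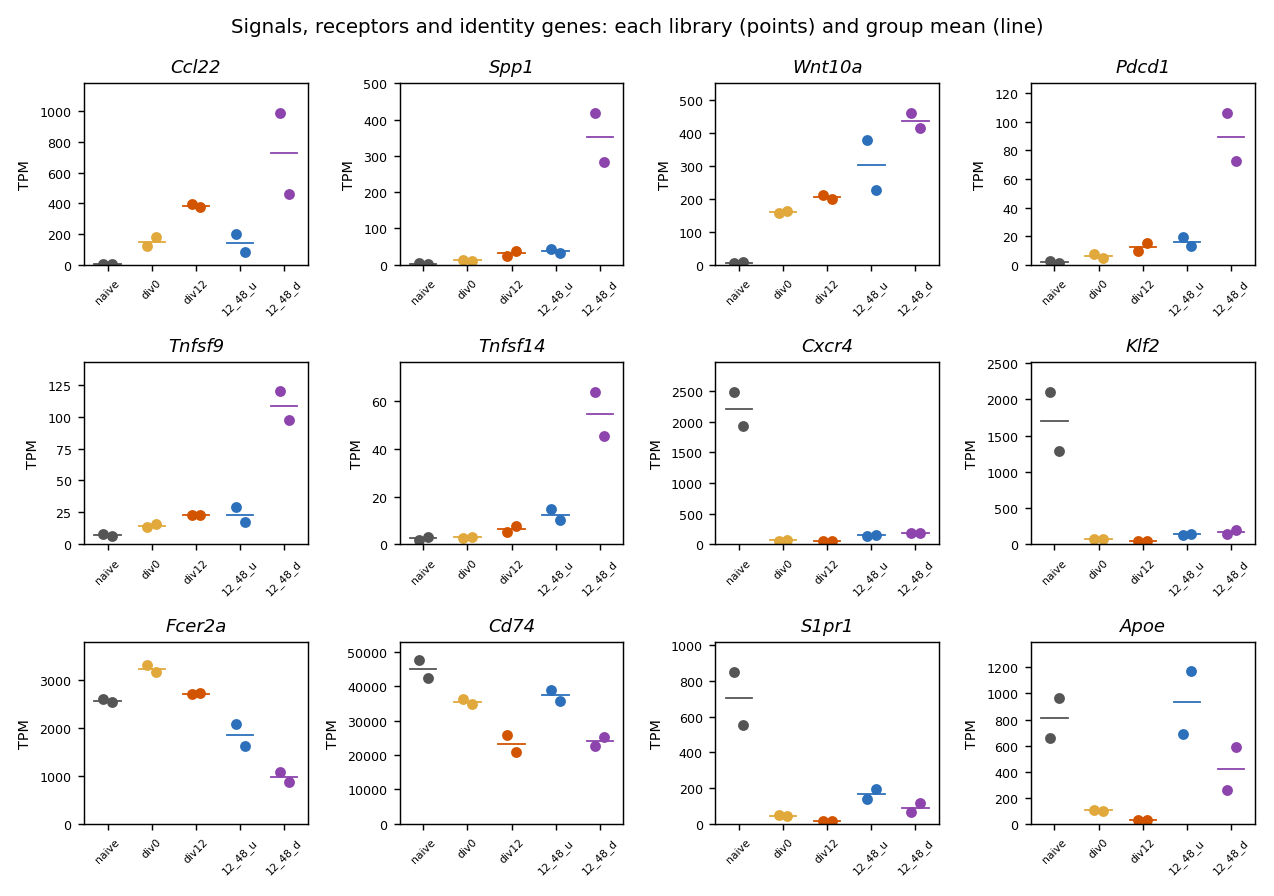
TPM of 12 genes for secreted factors, surface molecules and regulators in each library (points) of the 5 groups, with the group mean as a line; 12_48_u and 12_48_d stand for div12_48_u and div12_48_d, and each panel has its own axis from 0. Ccl22, Spp1, Wnt10a, Pdcd1, Tnfsf9 and Tnfsf14 have their highest means in div12_48_d, and Cxcr4, Klf2 and S1pr1 have their highest in naive and their lowest in div12.

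Regulators of quiescence were lower in divided cells. Of 19 tested members 15 fell and 0 rose (14 and 0 with median-ratio scaling, 15 and 1 without naive replicate 2). Klf4, a zinc finger factor that restrains B cell proliferation, went from 289 and 158 TPM in naive to 1.45 and 1.96 in div12_48_d, 79.8-fold lower (-6.32 ± 0.26, limma adjusted p = 2.21e-06). Tsc22d3 (GILZ), a glucocorticoid-induced gene, went from 1594 and 2124 to 25.2 and 44.2 TPM, 53.4-fold lower (-5.74 ± 0.26). Klf2, which controls lymphocyte trafficking, went from 2103 and 1292 to 135 and 201 TPM (-3.31 ± 0.24). Klf6 went from 894 and 352 to 55.7 and 58.0 TPM (-3.28 ± 0.34). Klf2 and Klf6 did not overlap between the groups, as was the case for 80.6% of genes tested, although their naive libraries were uneven. For Klf4 and Tsc22d3 the lack of overlap was a condition for naming. Txnip, a brake on glucose uptake, fell from 1544 and 1098 to 311 and 425 TPM (-1.84 ± 0.20). Slfn2, which maintains quiescence in lymphocytes, did not pass the test, at 282 and 742 TPM in naive and 511 and 549 in div12_48_d, where the divided libraries lie between the naive ones. Other large falls were in genes that divided cells still held at 10 TPM or more on average. Rgs1, a regulator of chemokine receptor signalling, went from 196 and 218 to 16.04 and 11.9 TPM (-3.81 ± 0.19). Abca1, a cholesterol exporter, went from 142 and 114 to 8.35 and 13.8 TPM (-3.45 ± 0.23). Acp5, a phosphatase, went from 458 and 556 to 31.0 and 71.0 TPM (-3.40 ± 0.38).

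Immediate early genes, which many signals and also handling of cells are known to induce within minutes, fell in 14 of 18 cases and rose in 0. Fosb went from 536 and 463 TPM in naive to 0.904 and 4.27 in div12_48_d (-7.30 ± 0.43, limma adjusted p = 5.87e-06). Fos went from 970.4 and 1702 to 11.02 and 57.3 TPM (-5.60 ± 0.72). The phosphatase gene Dusp1 went from 448 and 666 to 11.7 and 16.01 TPM (-5.22 ± 0.21). Both divided libraries were far below both naive libraries in these genes. Nr4a1, an orphan nuclear receptor induced by antigen, was at 4603 and 546 TPM in naive and 74.8 and 115 in divided cells (-4.08 ± 0.78, adjusted p = 0.00209). Some members were uneven in resting cells, where naive replicate 1 held more Nr4a1 and Atf3 than replicate 2. Atf3, a stress-induced factor, was at 254 and 14.6 TPM in naive and 1.00 and 1.30 in div12_48_d. Plk2, a polo-like kinase outside the list, was uneven in the same way, at 892 and 98.7 TPM in naive and 3.92 and 4.27 in div12_48_d. Myc, which is in this list and also drives growth, was at 1028 and 429 TPM in naive and 189 and 180.2 in div12_48_d (-1.84 ± 0.35, adjusted p = 0.00199), lower in both divided libraries than in either naive one. Without naive replicate 1, 17 were tested, of which 13 fell and 2 rose, and without replicate 2, 17 were tested, of which 15 fell and 0 rose. The part that handling of the resting cells has in these values was not tested.

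Genes of resting B cell identity were mostly lower, and those of the antigen receptor pathway fell no more often than all genes tested. In the identity list 13 of 20 fell and 1 rose (11 and 1 with median-ratio scaling). Cd55, a complement regulator, fell from 1340 and 1376 TPM in naive to 206 and 254 in div12_48_d (-2.57 ± 0.11, limma adjusted p = 2.29e-06). Ebf1, a transcription factor of the B lineage, fell from 278 and 246 to 69.4 and 86.0 TPM (-1.75 ± 0.13). Cd22, an inhibitory co-receptor, went from 2153 and 2210 to 736 and 865 TPM (-1.45 ± 0.12). These falls are larger than the spread between replicates. Cd52, a small surface glycoprotein, rose from 7355 and 7444 to 10400 and 9982 TPM (0.46 ± 0.10, adjusted p = 0.00365; lost with quantile normalization). Among receptor signalling genes 9 of 25 fell and 2 rose, against 40.6% and 21.8% of all genes tested, and with median-ratio scaling 6 fell and 4 rose and the median turned from -0.20 to 0.04. Malt1, which links the receptor to NF-kB, went from 554 and 391 to 165 and 176 TPM (-1.44 ± 0.15). The phosphatase Ptpn6, an abundant member, did not pass the test (-0.18 ± 0.09).

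Genes of antigen presentation by MHC class II fell in 8 of 8 tested cases with 0 rises (6 and 0 with median-ratio scaling, 7 and 0 with quantile normalization). Of the 8, H2-Ea-ps reached 1 TPM in the naive libraries alone (1.62 and 1.11 TPM), so it could only be lower in div12_48_d. Cd74, H2-Aa and H2-Ab1 had the largest losses of mean TPM among all genes tested. Cd74, the invariant chain and the most abundant gene of the list, went from 47700 and 42490 TPM in naive to 22670 and 25320 in div12_48_d (-0.91 ± 0.13, limma adjusted p = 0.000394). H2-Aa, the alpha chain of I-A, went from 18800 and 15260 to 9978 and 9026 TPM (-0.84 ± 0.13). H2-Ab1, its beta chain, went from 13930 and 11470 to 6960 and 6488 TPM (-0.91 ± 0.10). The naive replicates differ more than the divided ones. That the groups do not overlap was a condition for naming these genes. Ciita, the factor that switches these genes on, went from 623 and 636 to 356 and 319 TPM (-0.90 ± 0.10). H2-DMb1, which loads peptide, had the largest log2 change of the list, from 3358 and 2728 to 1177 and 1097 TPM (-1.41 ± 0.11, adjusted p = 1.99e-05). Dendritic cells and macrophages express these genes too. The summed dendritic cell markers were 64.0 and 113 TPM in naive and 43.6 and 34.5 in div12_48_d, and their part in the falls was not tested. Losses of mean TPM outside the list were large for the ferritin heavy chain Fth1, which went from 4801 and 4268 to 2253 and 2839 TPM (-0.84 ± 0.14). The class I gene H2-D1 went from 5203 and 5424 to 3085 and 3581 TPM (-0.68 ± 0.10).

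Receptors for homing and migration fell in 15 of 24 cases and rose in 4, against 40.6% and 21.8% of all genes tested. Cxcr4, the receptor for CXCL12 in bone marrow and lymphoid tissue, went from 2482 and 1923 TPM in naive to 176 and 182 in div12_48_d, 12.2-fold lower (-3.60 ± 0.17, limma adjusted p = 2.54e-06). It lies on chromosome 1 from 128588199 to 128592299. S1pr1, which lets lymphocytes leave tissue for blood, went from 852 and 556 to 64.9 and 114 TPM (-2.98 ± 0.29). Of the 4 that rose, Cd44 and Itgb1 are named after their values were seen. Ccr10, a receptor of mucosal plasma cells, went from 0 and 0.501 to 14.1 and 9.56 TPM (3.37 ± 0.28). Ccr1, a receptor for inflammatory chemokines, went from 15.9 and 14.6 to 104 and 97.6 TPM (2.64 ± 0.14). Ccr10 and Ccr1 are low in resting cells. The hyaluronan receptor Cd44 went from 97.5 and 122 to 321 and 298 TPM (1.5 ± 0.15). The integrin Itgb1 went from 71.5 and 85.8 to 129 and 117 TPM (0.64 ± 0.12). Ccr6, a receptor of mature B cells, did not pass the test, at 598 and 438 TPM in naive and 694 and 573 in div12_48_d.

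Interferon response genes fell in 17 of 24 cases and rose in 2 (17 and 4 with median-ratio scaling). Irf7, the master factor of this response, went from 175 and 189 TPM in naive to 10.2 and 19.9 in div12_48_d (-3.58 ± 0.26, limma adjusted p = 1.63e-05). The antiviral gene Oasl2 went from 23.4 and 39.6 to 2.61 and 2.72 TPM (-3.10 ± 0.23). Ifi205 went from 62.1 and 59.0 to 1.36 and 3.84 TPM (-4.19 ± 0.52). The rises were guanylate-binding proteins named after their values were seen. Gbp2 went from 40.9 and 52.3 to 100.3 and 111 TPM (1.17 ± 0.16). Gbp3 went from 80.3 and 125 to 158 and 189 TPM (0.78 ± 0.19). Ifitm3, an antiviral membrane protein, was at 62.0 and 190 TPM in naive and 2.41 and 2.43 in divided cells (-5.00 ± 0.42), with naive replicate 2 the higher, as it was for the summed myeloid markers. Among Toll-like receptors and adaptors 8 of 19 fell and 3 rose, near the 40.6% and 21.8% of all genes tested (5 and 5 with median-ratio scaling, under which the median turned from -0.19 to 0.06). Without naive replicate 2, 5 fell and 4 rose. Tlr3 fell from 7.58 and 12.1 to 1.03 and 1.02 TPM (-2.39 ± 0.21). The inhibitor Irak3 went from 98.9 and 83.3 to 31.7 and 37.3 TPM (-1.38 ± 0.13). Unc93b1, the chaperone of endosomal receptors, did not pass the test, at 1752 and 1776 TPM in naive and 1522 and 1577 in div12_48_d.

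Genes of actin and adhesion fell in 19 of 33 cases and rose in 5, and with median-ratio scaling 9 fell and 8 rose. Lgals1 (galectin-1) rose from 98.1 and 143 TPM in naive to 388 and 334 in div12_48_d (1.60 ± 0.21, limma adjusted p = 0.000334). Anxa2 fell from 93.0 and 94.4 to 24.0 and 26.7 TPM (-1.85 ± 0.19). S100a4, which myeloid and T cells are known to express, went from 59.9 and 119 to 0.857 and 0.970 TPM (-5.48 ± 0.36). The calls in this list go both ways. Beta-actin (Actb) did not pass the test, at 9154 and 10570 TPM in naive and 9286 and 9336 in div12_48_d. Autophagy and lysosome genes fell in 16 of 36 cases, near the 40.6% of all genes tested, and rose in 5, a balance that median-ratio scaling turns to 6 falls and 8 rises and a median of 0.03. Neu1, a sialidase, went from 106 and 93.8 to 48.1 and 55.2 TPM (-0.94 ± 0.11). Among chromatin modifiers 12 of 37 rose and 15 fell, the latter near the share of all genes tested, and with median-ratio scaling 13 rose and 11 fell. Ezh2, the methyltransferase of Polycomb complex PRC2, rose from 63.3 and 69.2 to 278 and 278 TPM (2.06 ± 0.13, adjusted p = 8.18e-06). The acetyltransferase gene Crebbp went from 159.9 and 119 to 58.7 and 74.0 TPM (-1.05 ± 0.22). Crebbp and Kdm6b were uneven between the naive libraries. Kdm6b, which removes the mark that Ezh2 sets, went from 358 and 90.6 to 23.3 and 33.6 TPM (-2.64 ± 0.51).

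Genes of later B cell fates gave a mixed picture. In the germinal centre list 6 of 14 rose and 5 fell, against 21.8% and 40.6% of all genes tested. Bcl6, the repressor that defines that fate, fell from 282 and 156 TPM in naive to 25.4 and 33.0 in div12_48_d (-2.81 ± 0.27, limma adjusted p = 6.13e-05). Bach2, a repressor that restrains plasma cell formation, fell from 277 and 260.3 to 52.8 and 65.6 TPM (-2.17 ± 0.15). Mef2b, a germinal centre factor that works upstream of Bcl6, rose from 45.3 and 19.8 to 249.5 and 232 TPM (2.96 ± 0.37, adjusted p = 0.000242). The death receptor Fas went from 23.1 and 17.8 to 127 and 89.8 TPM (2.34 ± 0.21). In the plasma cell list 0 of 7 rose and 1, Cd28, fell, a call that is lost under several alternatives. Prdm1 (Blimp-1), the factor that commits B cells to secretion, did not pass the test and overlapped, at 19.4 and 7.86 TPM in naive and 8.69 and 15.9 in div12_48_d, and was lower in div12, at 1.95 and 1.70 TPM (2.18 ± 0.38 for div12_48_d minus div12, adjusted p = 0.00722). Xbp1, which expands the secretory apparatus, was at 166 and 194 TPM in naive and 200.4 and 246 in div12_48_d (0.30 ± 0.12, adjusted p = 0.0549). Irf4, a factor of both activation and plasma cells, was at 1682 and 308 TPM in naive, with replicate 1 far above replicate 2, and 377 and 445 in divided cells.

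Markers of B1-like and memory cells rose in 6 of 14 cases and fell in 3, against 21.8% and 40.6% of all genes tested. Without naive replicate 2 the list had 6 rises and 6 falls, and its median went from 0.39 to 0.15. Zbtb32, a repressor of memory B cells, went from 12.4 and 20.5 TPM in naive to 83.7 and 114 in div12_48_d (2.54 ± 0.25, limma adjusted p = 6.93e-05). Cd5, the surface marker of B1a cells, went from 11.4 and 12.1 to 70.4 and 74.7 TPM (2.53 ± 0.11, adjusted p = 2.29e-06). Bhlhe41, a factor of B1a and memory cells, went from 22.7 and 16.4 to 102 and 126 TPM (2.49 ± 0.17). The tetraspanin Cd9 went from 87.3 and 78.4 to 234 and 304 TPM (1.68 ± 0.14). All 4 were higher in both divided libraries. Cd5, Bhlhe41 and Cd9 are named after their values were seen. Itgam, in this list as a B1 marker and in the myeloid list, fell from 18.6 and 38.8 to 2.22 and 2.88 TPM (-2.98 ± 0.32). Among the tested memory markers, Pdcd1lg2 (PD-L2) fell from 47.1 and 41.9 to 10.04 and 10.4 TPM (-2.02 ± 0.14), also named after its values were seen. Plac8, the most abundant member, did not pass the test, at 1833 and 2072 TPM in naive and 1141 and 2084 in div12_48_d.

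Setting the same cells against their undivided Phase II counterparts and their Phase I parents shows which of these genes differ there too. These comparisons use the same div12_48_d libraries as the one with naive. Against div12_48_u, limma called 1134 of 4427 genes (25.6%), 540 higher (12.2%) and 594 lower (13.4%) in div12_48_d, and with median-ratio scaling 674 higher and 482 lower (593 and 613 with quantile normalization). Against div12 it called 706 (15.9%), 525 higher (11.9%) and 181 lower (4.09%), and median-ratio scaling gave 438 higher and 446 lower (382 and 364 with quantile normalization). Without div12_48_d replicate 1 the first count was 335, without div12_48_u replicate 1 it was 553 and without replicate 2 it was 628. Without div12_48_d replicate 2 the count against div12 was 218, and without div12 replicate 1 or 2 it was 447 or 303.

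Cell cycle genes were higher than in div12_48_u, with all 24 mitosis genes and 22 of 25 replication genes called higher and 0 lower. Against div12, 0 mitosis genes were called higher and 1 lower, and 0 replication genes were called higher and 12 lower. Birc5 was at 540 and 505 TPM in div12 and 113 and 98.5 in div12_48_u, -0.83 ± 0.15 on the log2 scale for div12_48_d minus div12 (adjusted p = 0.00826) and 1.47 ± 0.15 for div12_48_d minus div12_48_u (adjusted p = 0.000753). Mki67 gave -0.34 ± 0.21 against div12 (adjusted p = 0.323), which did not pass the test, and 1.34 ± 0.21 against div12_48_u. Against div12_48_u, 23 of 40 oxidative phosphorylation genes were called higher and 0 lower, and 7 of 8 MHC class II genes were called lower and 0 higher.

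Several genes that rose against resting cells were also called against both other groups. Spp1 was at 25.5 and 39.0 TPM in div12 and 44.4 and 33.2 in div12_48_u, against 418 and 284 in div12_48_d (3.41 ± 0.31 for div12_48_d minus div12, limma adjusted p = 0.000482, and 3.13 ± 0.31 for div12_48_d minus div12_48_u, adjusted p = 0.000739). Adamts7, a secreted protease, was at 0.0103 and 0.0837 TPM in naive, 0.947 and 0.862 in div12, 3.08 and 1.24 in div12_48_u and 24.2 and 17.4 in div12_48_d (3.50 ± 0.29 against div12, adjusted p = 0.000446). Pdcd1 was at 9.96 and 15.4 TPM in div12 and 19.4 and 12.9 in div12_48_u (2.73 ± 0.31 and 2.41 ± 0.31 for div12_48_d minus each). All 3 were highest in div12_48_d. Ccr10 was at 1.64 and 1.13 TPM in div12 and 1.31 and 0.668 in div12_48_u (2.42 ± 0.28 and 2.69 ± 0.28). Pstpip2, an adaptor that binds the cytoskeleton, was at 9.29 and 22.2 TPM in naive, 6.01 and 5.58 in div12, 24.6 and 24.3 in div12_48_u and 92.8 and 135 in div12_48_d (4.05 ± 0.34 against div12, adjusted p = 0.000446). In each of these genes both div12_48_d libraries lay above every other library of the series. Genes named for the size of a change had to be free of overlap in that comparison. Part of this separation was therefore a condition for naming.

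Among genes called lower than in both naive and div12_48_u, 5 are named for the size of the change against div12_48_u. Ifi205 was at 27.3 and 44.6 TPM in div12_48_u, -3.41 ± 0.52 for div12_48_d minus div12_48_u (limma adjusted p = 0.00347). Icosl, the ligand of ICOS on helper T cells, was at 649.7 and 847 TPM in naive, 359 and 326 in div12, 544 and 406 in div12_48_u and 172 and 129.9 in div12_48_d (-1.65 ± 0.19, adjusted p = 0.00111). S1pr3, a sphingosine phosphate receptor, was at 64.7 and 43.9 TPM in naive, 61.0 and 78.4 in div12_48_u and 16.5 and 17.9 in div12_48_d (-1.58 ± 0.22 against naive and -1.95 ± 0.22 against div12_48_u). That both div12_48_d libraries lie below both div12_48_u libraries was a condition for naming these genes. Satb1, a genome organiser, was at 162 and 141 TPM in naive, 119.5 and 155 in div12_48_u and 32.8 and 54.5 in div12_48_d (-1.81 ± 0.25 and -1.66 ± 0.25). Gcnt1, a glycosyltransferase, was at 50.3 and 72.7 TPM in naive, 67.7 and 64.1 in div12_48_u and 21.0 and 21.3 in div12_48_d (-1.47 ± 0.16 and -1.60 ± 0.16).

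Against div12, several genes that are low there were higher in Phase II. Of the quiescence list 5 of 19 were higher than in div12 and 0 lower, and of the immediate early genes 7 of 18 and 0. Apoe, an apolipoprotein, was at 655 and 968 TPM in naive, 25.5 and 28.7 in div12, 693 and 1169 in div12_48_u and 258 and 586 in div12_48_d (3.80 ± 0.38 against div12, limma adjusted p = 0.000736). Its fall against naive is lost under several alternatives. Klf2 was at 45.1 and 40.3 TPM in div12 (1.93 ± 0.24 for div12_48_d minus div12, adjusted p = 0.0017). Cxcr4 was at 60.3 and 50.1 TPM there (1.68 ± 0.17) and S1pr1 at 14.0 and 13.2 (2.58 ± 0.29). In div12_48_d all 3 lay between div12 and naive. Lag3, an inhibitory receptor, was at 2.77 and 3.24 TPM in div12 and 22.8 and 42.2 in div12_48_d (3.01 ± 0.35). Slamf1, an adhesion receptor, fell from 85.7 and 82.5 TPM in naive and 56.2 and 52.8 in div12 to 17.2 and 13.9 TPM (-1.75 ± 0.13 against div12, adjusted p = 0.000446). Ache, Adipoq and Carmil3 were called higher than in naive and lower than in div12. Carmil3, a regulator of actin capping, was at 5.37 and 6.79 TPM in naive, 63.7 and 48.6 in div12 and 18.5 and 14.3 in div12_48_d.

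Markers of cells other than B cells fell too. Many of them reached 1 TPM in the naive libraries alone, so a member that was tested had to be higher there. All 10 tested neutrophil markers, all 7 NK markers, all 6 platelet markers, 10 of 11 erythroid, 15 of 19 myeloid, 11 of 14 T cell and 6 of 7 dendritic cell markers fell in div12_48_d. S100a8 and S100a9, the calprotectin genes of neutrophils, C1qa of macrophages, Ncr1 and Gzmb of NK cells and Pf4 of platelets were listed at 0 in both divided libraries. Summed neutrophil markers were 239 and 561 TPM in naive and 25.6 and 28.0 in div12_48_d. Summed NK markers were 123 and 176 TPM in naive and 4.13 and 5.18 in div12_48_d. Summed T cell markers were 1061 and 977 TPM in naive and 583 and 723 in div12_48_d, and summed platelet markers 70.1 and 76.4 TPM and 29.0 and 23.2 TPM. Each of these sums was higher in both naive libraries. The T cell sums rest largely on 2 genes. Cd2 was at 835.5 and 721.5 TPM in naive and 118.5 and 244.5 in div12_48_d, and Lck was at 422 and 445 TPM in div12_48_d. The largest falls outside the lists include Fcna (from 42.5 and 196 TPM), Trf (from 45.4 and 170.3), Ear2 (from 26.8 and 77.0) and Il1b (from 74.5 and 50.4), and Fcna, Trf and Ear2 were, like the myeloid markers, over 2-fold higher in naive replicate 2 than in replicate 1. Without a naive library fewer markers were tested: 1 NK marker without either, and 12 myeloid markers, of which 10 fell without replicate 1 and 8 without replicate 2. Without either naive library 5 neutrophil and 3 platelet markers fell, and 6 T cell markers fell without replicate 1 and 7 without replicate 2. A few markers rose. Lck, a kinase also known in B1 cells, went from 125 and 133 to 422 and 445 TPM (1.74 ± 0.09, limma adjusted p = 4.26e-06). Mpeg1, which B cells express as well, went from 102 and 210.3 to 515 and 581 TPM (1.89 ± 0.27). Both rises are larger than the spread between replicates. Flt3, a cytokine receptor, went from 12.8 and 11.4 to 33.0 and 23.9 TPM (1.15 ± 0.23). Adgre1 (F4/80), named after its values were seen, went from 23.4 and 65.6 to 139 and 204 TPM (2.07 ± 0.41). After the marker lists, immediate early genes and immunoglobulin segments were left out and the libraries rescaled, limma called 2691 genes, 916 higher and 1775 lower. The part that other cells have in the falls of single genes was not tested.

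**Figure D5:**
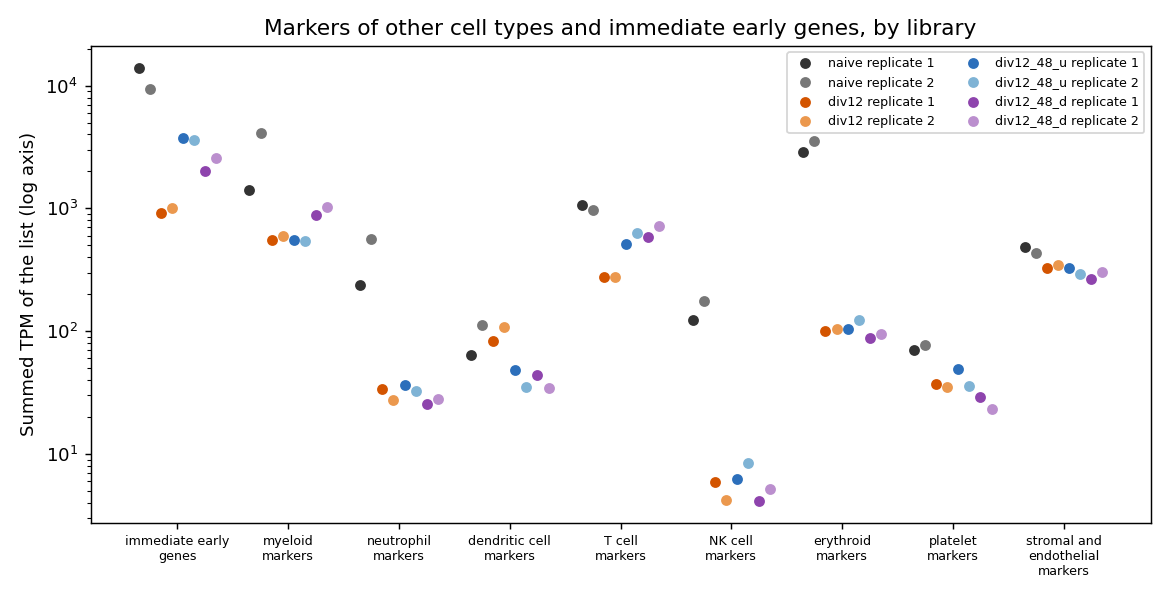
Summed TPM of each marker list and of the immediate early genes in each library of naive, div12, div12_48_u and div12_48_d, on a log axis. The immediate early, neutrophil, NK and erythroid sums of both naive libraries are far above those of every other library shown, and the myeloid and neutrophil sums of naive replicate 2 are above those of replicate 1.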

How the data were processed

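RNA-seq values of 10 libraries of mouse splenic B cells were used, 2 per group, of which naive and div12_48_d give the comparison described. The deposited table holds TPM per transcript, as made by the authors. The submitters' processing notes name the build mm10 and the tools HISAT2, Salmon, featureCounts, HTSeq and DESeq2, and which of them gave these values is not given in the sources used here. Of 13128 transcripts, 13065 with a gene symbol were summed to 6610 genes, and 0 per-sample columns were left unused. The table has 28.9% of the protein-coding symbols of the reference, so counts of list members cover only the genes it holds.

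Of the 6610 genes, 4427 that reached 1 TPM in 2 or more libraries were tested with limma 3.58.1 (R 4.3.3) on log2(TPM + 1), all 10 libraries sharing 1 estimate of the spread (5 residual degrees of freedom), with group as the only term and p-values adjusted by Benjamini-Hochberg over all tested genes at 0.05, two-sided. TPM keep no depth, so no counting interval is given. The script was tested on simulated data with 4427 genes, 200 of them changed, for the comparison of div12_48_d with naive. It called 78.8% of genes changed 2-fold and 94.2% of those changed 4-fold, and 4.95% of its calls were false. Each simulated gene had the same spread in every group. In the data the log2 ratio of replicates had a standard deviation of 0.553 in naive and 0.297 in div12_48_d. The simulated share of false calls therefore does not measure that of the real comparison. Alternatives were other pseudocounts, filters and scalings, no trend, a replicate block, the compared groups alone, the most abundant transcript and each library left out. Promoters are RefSeq windows on GRCm38.p6. Tables were made with pandas 2.3.3 and numpy 2.4.6 in Python 3.11.15, and figures with matplotlib 3.10.9.

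The members, gene lists and rules were chosen with earlier results of these data known. Genes are named by rule. These are the 8 called rises and 8 called falls of largest size among genes whose higher group averages 10 TPM or more and whose libraries do not overlap, the same falls where div12_48_d also averages 10 TPM or more, and the 8 largest differences of mean TPM each way. Marker lists, immediate early genes, histones, small RNAs and immunoglobulin segments were left out of those. The rule adds 2 to 4 called members with the largest change and up to 2 most abundant members per list. It also adds 8 genes of interest (Birc5, Aurkb, Mki67, Myc, Ccnd2, Ccnd3, Cdkn1b, Prdm1). Last come 5 genes each way against div12_48_u and div12, under the same conditions of level and overlap and also called against naive. Other names are marked in the text as chosen after their values were seen. Some genes that this rule names are not reported here.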

Additional observations from a re-analysis of the deposited data

How the results depend on the processing

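The results were recomputed under 22 other settings. The 2762 genes called against naive became 504 (188 higher, 316 lower) where limma tested for a change of more than 2-fold. This fold requirement is stricter than a call with an observed change of at least 2-fold. Against div12_48_u, 1134 genes became 670 with the compared groups alone, 2 with the fold requirement and 335 to 1471 with 1 library left out. Against div12, 706 became 412 with the compared groups alone, 29 with the fold requirement and 218 to 1006 with 1 library left out. With a replicate block over all libraries limma called 2664, 1017 and 600 genes. Deviations of same-numbered libraries from their group means correlated at -0.027 for naive, -0.175 for div12 and 0.199 for div12_48_u, each with div12_48_d, which does not establish whether the numbers pair the libraries. For div12 the block in the compared groups alone gave 0 calls by limma (993 genes at an unadjusted p under 0.05) and crossed numbers gave 427 (1484 at an unadjusted p under 0.05), both chosen after seeing the data; the cause was not tested. List medians had the opposite sign in 17 of 865 cases, over 9 lists. With median-ratio scaling these were B cell receptor signalling (0.04), NF-kB and CD40 response (0.13), autophagy and lysosome (0.03), Toll-like receptors (0.06), germinal centre (0.07), chromatin modifiers (0.15) and plasma cell (0.15). With quantile normalization they were germinal centre (0.23), stromal markers (0.32), chromatin modifiers (0.09) and plasma cell (0.32). With 1 library left out, 6 more cases turned, in the NF-kB, germinal centre, plasma cell and CDK inhibitor lists. The NF-kB median ran from -0.23 (without div12_48_d replicate 1) to 0.15 (without naive replicate 1) with 1 library left out. Over all alternatives, list medians stayed within the replicate spread in 764 cases, some of them of opposite sign, and went beyond it in the others. Named genes kept direction and call in 5558 cases, lost the call in 232, gained it in 30 and turned in 1, Ccnd3 in its most abundant transcript (0.03). TPM without counts limit what can be said of genes near 0.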

Other observations

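Sums over transcripts can hide opposite changes within a gene. Of 8165 transcripts tested with limma in the same way, 3520 were called between div12_48_d and naive, and 1849 genes had several tested transcripts. In 8 of these genes, transcripts of at least 10 TPM were called over 2-fold in opposite directions: Atp6v0c, Chtop, Dpcd, Nfatc1, Runx1, Tatdn1, Tra2b and Yif1b, found after the values were seen. How reads were divided between overlapping transcripts is not given in the sources used here.

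Nfatc1, a calcium-regulated factor of antigen receptor signalling, had a transcript that fell from 60.2 and 81.4 TPM in naive to 28.9 and 38.5 in div12_48_d (-1.05 ± 0.23, limma adjusted p = 0.0072). Another of its transcripts rose from 132 and 126 to 243 and 402 TPM (1.27 ± 0.22), and another from 26.7 and 25.6 to 116 and 175 TPM (2.40 ± 0.22, adjusted p = 0.000117). Runx1, a factor of blood cell development, had a transcript that fell from 58.0 and 62.2 to 18.4 and 27.4 TPM (-1.38 ± 0.21, limma adjusted p = 0.00145) and one that rose from 2.13 and 2.95 to 18.8 and 20.9 TPM (2.57 ± 0.30, adjusted p = 0.000358). The groups did not overlap for any of these transcripts. Chtop, an mRNA export factor, had a transcript at 158 and 171 TPM in naive and 83.5 and 78.0 in div12_48_d (-1.02) beside one that rose from 18.9 and 31.7 to 78.8 and 96.7 TPM (1.79 ± 0.35, limma adjusted p = 0.00425).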
